A study of Homo sapiens with 6 samples.

Results

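The 10 genes described here encode forkhead transcription factors, namely FOXA1, FOXA2, FOXA3, FOXO1, FOXO3, FOXM1, FOXQ1, FOXP1, FOXK1 and FOXN3. They were taken by gene name from 58735 annotated genes. All 10 passed the filter on low counts, as did 15694 genes in all. The deposited table assigns 47 genes to the forkhead family, of which 22 passed that filter. RNA came from T84 cells, a human line grown from a colorectal carcinoma, with 3 libraries that carried a short hairpin RNA against ACSL4 (shACSL4) and 3 with a control hairpin (shControl). The labels give the first group a knockdown genotype and the second a wild-type one, while the series text speaks of a knockout. The ACSL4 protein couples polyunsaturated fatty acids to coenzyme A. The line stands for 1 tumour, and how many hairpins were used, and with which sequence, is not stated. Whether replicate libraries stem from separate cultures is not stated either, so p-values measure only the spread between these libraries, which may be technical.

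Forkhead factors share a winged-helix domain that binds DNA, and the subfamilies differ in what surrounds it and in how they are controlled. The FOXA factors open closed chromatin and act with hepatocyte nuclear factors in endoderm, where mouse gut needs Foxa1 and Foxa2 for its goblet and enteroendocrine cells. FOXO factors are driven out of the nucleus when insulin signalling activates AKT, and FOXM1 joins the MuvB complex on promoters of genes of late cell division. FOXQ1 is a target of Wnt signalling in colorectal cancer, FOXP1 and FOXN3 are repressors, and FOXK1 acts in both autophagy and glycolysis.

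The libraries gave 14740383 to 17620630 counts each, and the first principal component, with 78.6% of the variance, separated the groups. ACSL4 was at 10.2 ± 0.979 CPM (the standard count measure relative to scaled library size) in shACSL4 and at 73.2 ± 1.98 CPM in shControl (SD, n = 3 each). Its log2 fold change was -2.85 (SE 0.10; adjusted p = 3.57e-12, edgeR). Markers of colonic epithelium were present throughout, with a summed level of 9129 to 10472 CPM in shACSL4 and 8043 to 9294 CPM in shControl over 12 genes. Of the marker lists of other cell types, 8 fibroblast genes summed to 2.40 to 2.68 CPM in shACSL4 and 2.26 to 4.37 CPM in shControl, with PDGFRA and THY1 at 0 counts. The 4 endothelial genes summed to 0.705 to 1.01 CPM in shACSL4 and 0.740 to 1.25 CPM in shControl, with KDR at 0. The 8 immune genes summed to 6.04 to 8.73 CPM in shACSL4 and 18.8 to 30.5 CPM in shControl. Most of that was LYZ, which gut epithelium also makes, and CD3E was at 0. Their part in the results below was not tested.

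The start regions of the 3 members with the largest rise (FOXA3), the largest fall (FOXK1) and a fall opposite to its closest relatives (FOXA1) are shown to let their layouts be compared. Each is the 250 bases before the RefSeq start site (GRCh38.p14), on the gene's strand, and capitals mark GGGCGG or its reverse complement CCGCCC, the letters of a GC box. The regions are chr14:37595250-37595499 (minus strand) for FOXA1, chr19:45864076-45864325 (plus strand) for FOXA3 and chr7:4682045-4682294 (plus strand) for FOXK1. The FOXA1 and FOXA3 regions lie inside the bounds of the gene as deposited, and the FOXK1 region lies before them.
FOXA1: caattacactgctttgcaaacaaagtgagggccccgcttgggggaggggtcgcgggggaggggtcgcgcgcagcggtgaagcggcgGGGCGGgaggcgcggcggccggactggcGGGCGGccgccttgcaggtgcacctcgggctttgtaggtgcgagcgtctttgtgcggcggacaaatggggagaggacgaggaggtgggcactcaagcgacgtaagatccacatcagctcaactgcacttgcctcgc
FOXA3: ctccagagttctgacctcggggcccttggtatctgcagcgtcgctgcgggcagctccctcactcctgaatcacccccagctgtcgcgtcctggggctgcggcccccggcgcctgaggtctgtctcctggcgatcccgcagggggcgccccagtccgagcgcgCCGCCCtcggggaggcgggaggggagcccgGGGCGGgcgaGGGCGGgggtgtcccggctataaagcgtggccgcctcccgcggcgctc
FOXK1: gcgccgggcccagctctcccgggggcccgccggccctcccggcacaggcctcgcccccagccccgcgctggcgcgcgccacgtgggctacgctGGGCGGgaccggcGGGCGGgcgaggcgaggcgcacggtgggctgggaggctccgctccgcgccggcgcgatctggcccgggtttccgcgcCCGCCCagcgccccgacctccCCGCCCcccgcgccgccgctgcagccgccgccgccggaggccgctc

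FOXA1 holds these letters at 2 places, FOXA3 at 3 and FOXK1 at 4, and 42.5% of 34943 regions of the same length hold them at least once. The G and C share is 67.2% in FOXA1, 75.2% in FOXA3 and 85.6% in FOXK1, against a median of 58.0% over all regions. The letters TATAAA begin 30 bases before the FOXA3 start (position -30) and are not in the FOXA1 or FOXK1 window, while 10.8% of all regions hold them or their reverse complement. The exact letters TGTTTAC, a form of the core that forkhead factors bind, are in none of the 3 windows on either strand. Of all regions, 2.98% hold them. The FOXA1 window does hold GCAAACA, the reverse complement of TGTTTGC, which has G in place of A. How often TGTTTGC occurs over all regions was not counted. Other forms of that core were not searched for, so their presence in the FOXA3 and FOXK1 windows is not settled. RefSeq regions matched 8 of the 10 members, FOXA2 and FOXM1 being the others.

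Of the 10 members, 4 rose in shACSL4 cells (FOXA3, FOXP1, FOXA2 and FOXM1) and 2 fell (FOXK1 and FOXA1), at an adjusted p under 0.05 in edgeR's quasi-likelihood test. Over all genes tested, 24% rose and 23.1% fell, 47.2% in all. Of the members, 60% were called. Their median log2 fold change was 0.04, beside 0.01 over all genes tested, and ranged from -0.07 (without shACSL4 replicate 2) to 0.13 (without shACSL4 replicate 1) on leaving out 1 library. The groups of libraries did not overlap for 6 members, those that were called, and for 55.1% of all genes tested. All 10 members had between 266 and 7411 counts in every library. In bulk RNA, fewer cells that express a gene and less RNA per cell cannot be told apart.

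**Figure D1:**
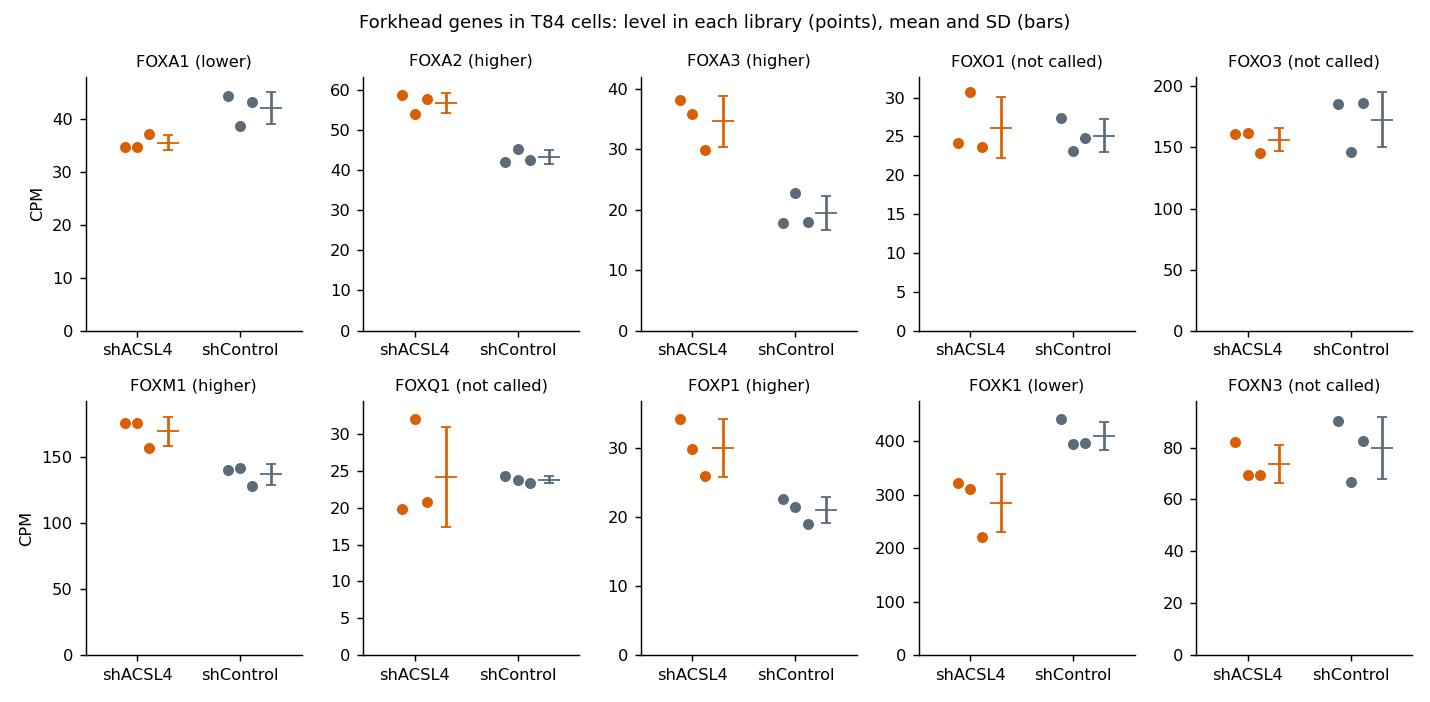
Level of each forkhead gene in CPM (vertical axes from 0) in the 3 shACSL4 libraries (left, orange) and the 3 shControl libraries (right, grey). Points are libraries and bars the mean and SD. The groups are apart for FOXA1, FOXA2, FOXA3, FOXM1, FOXP1 and FOXK1 and overlap for FOXO1, FOXO3, FOXQ1 and FOXN3.

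The 3 FOXA genes did not move as a unit. FOXA3 rose most among the members, FOXA2 rose less, and FOXA1 fell slightly. FOXA3 (ENSG00000170608, GRCh38 chromosome 19, 45863989 to 45873797, plus strand), which in mouse liver helps hold metabolic genes active, had 38.1, 35.9 and 29.9 CPM in shACSL4 replicates 1, 2 and 3 and 17.8, 22.7 and 17.9 CPM in shControl replicates 1, 2 and 3. Its lowest shACSL4 library lay above its highest shControl library. The means were 34.6 ± 4.22 CPM in shACSL4 and 19.5 ± 2.82 CPM in shControl (SD, n = 3 each), a log2 fold change of 0.83 (SE 0.12; adjusted p = 3.95e-05, edgeR).

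FOXA2 (ENSG00000125798, chromosome 20, 22581005 to 22585455, minus strand), which directs endoderm formation, had 58.6, 53.9 and 57.8 CPM in the shACSL4 libraries and 42.1, 45.3 and 42.4 CPM in the shControl libraries. The 3 libraries of each group lay close together and the groups were apart. Its log2 fold change was 0.39 (SE 0.09; adjusted p = 0.00135, edgeR).

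FOXA1 (ENSG00000129514, chromosome 14, 37589984 to 37596059, minus strand), the pioneer factor known from breast and prostate for opening sites of steroid receptors, had 34.6, 34.8 and 37.1 CPM in the shACSL4 libraries. The shControl libraries had 44.4, 38.6 and 43.1 CPM. The groups were apart by little, since the highest shACSL4 library (37.1 CPM) and the lowest shControl library (38.6 CPM) were neighbours. The log2 fold change was -0.24 (SE 0.09; adjusted p = 0.0402, edgeR). The call was lost without shControl replicate 1 (adjusted p = 0.153) or 3 (0.0905), and without shACSL4 replicate 1 (0.126) or 2 (0.124). It was lost as well with DESeq2 (0.0642), with no filter (0.0789) and with library size alone as scaling (log2 fold change -0.12, adjusted p = 0.319), and the range over 15 alternatives was 0.0139 to 0.319. In the authors' deposited table FOXA1 had a log2 fold change of -0.26 and an adjusted p of 0.0661.

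Per length, in the authors' deposited FPKM, the make-up of the FOXA group differed between the groups of libraries. FOXA1 gave 17.9%, 19.1% and 20.6% of the summed FOXA FPKM in shACSL4 replicates 1, 2 and 3, against 31.5%, 25.9% and 30.7% in shControl replicates 1, 2 and 3. FOXA3 gave 35.8%, 35.7% and 30.2% in the shACSL4 libraries, against 22.9%, 27.7% and 23.1% in the shControl libraries. FOXA2 held 46.9 ± 2.01% in shACSL4 and 46.1 ± 0.416% in shControl (SD, n = 3 each). So FOXA1 was the second of the 3 in each shControl library except replicate 2, and the last in each shACSL4 library.

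The log2 ratio of FOXA1 to FOXA2 was -1.29 ± 0.07 in shACSL4 and -0.66 ± 0.16 in shControl (SD, n = 3 each), a difference of -0.63 (exact two-sided permutation test, p = 0.1, the smallest that 3 against 3 libraries can give; 0.25 after adjustment over 5 ratios). The ratio of FOXA3 to FOXA2 was -0.47 ± 0.20 in shACSL4 and -0.91 ± 0.14 in shControl (log2, SD, n = 3 each), a difference of 0.44 with the same exact p of 0.1, adjusted 0.25. The libraries of the 2 groups did not overlap in the first ratio or in the second.

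Genes that work with FOXA factors or mark the secretory cells they help form were mostly higher. Of the 30 genes of this list, 23 passed the filter, and of these 15 rose and 3 fell. That is 78.3% called against 47.2% of all genes tested (median log2 fold change 0.46, and 0.26 on FPKM with 1 added). The rises with the smallest adjusted p were in ATOH1, which commits cells to the secretory lineage (25.9 ± 3.66 CPM in shACSL4 and 2.61 ± 0.866 CPM in shControl; SD, n = 3 each), MUC2, the main goblet cell mucin (130 ± 28.4 CPM in shACSL4 and 27.7 ± 3.85 CPM in shControl), and NEUROG3, which starts the enteroendocrine programme (7.0 ± 0.224 CPM in shACSL4 and 0.785 ± 0.195 CPM in shControl). Their log2 fold changes were 3.31 (SE 0.19), 2.24 (SE 0.14) and 3.16 (SE 0.26). Among other enteroendocrine genes of the list, CHGA (log2 fold change 0.59) and PAX6 (0.46) were called higher. NEUROD1, ISL1, GCG and PYY did not pass the filter, with at most 5 counts in any library. These enteroendocrine genes were picked after their values were seen. The 3 falls were in the protease inhibitor SERPINA1 (-2.07, SE 0.14), the progenitor factor SOX9 (-0.45, SE 0.09) and the corepressor TLE3 (-0.24, SE 0.09). TLE3 lost its call without shControl replicate 1 and without shACSL4 replicate 1, 2 or 3 (adjusted p = 0.149, 0.0503, 0.0738 and 0.119, edgeR), and with library size alone (-0.12, adjusted p = 0.239). Within this list the nuclear receptor HNF4A was called higher (log2 fold change 0.71), while the intestinal factor CDX2 (0.18) was not called. Both genes were picked after their values were seen.

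**Figure D2:**
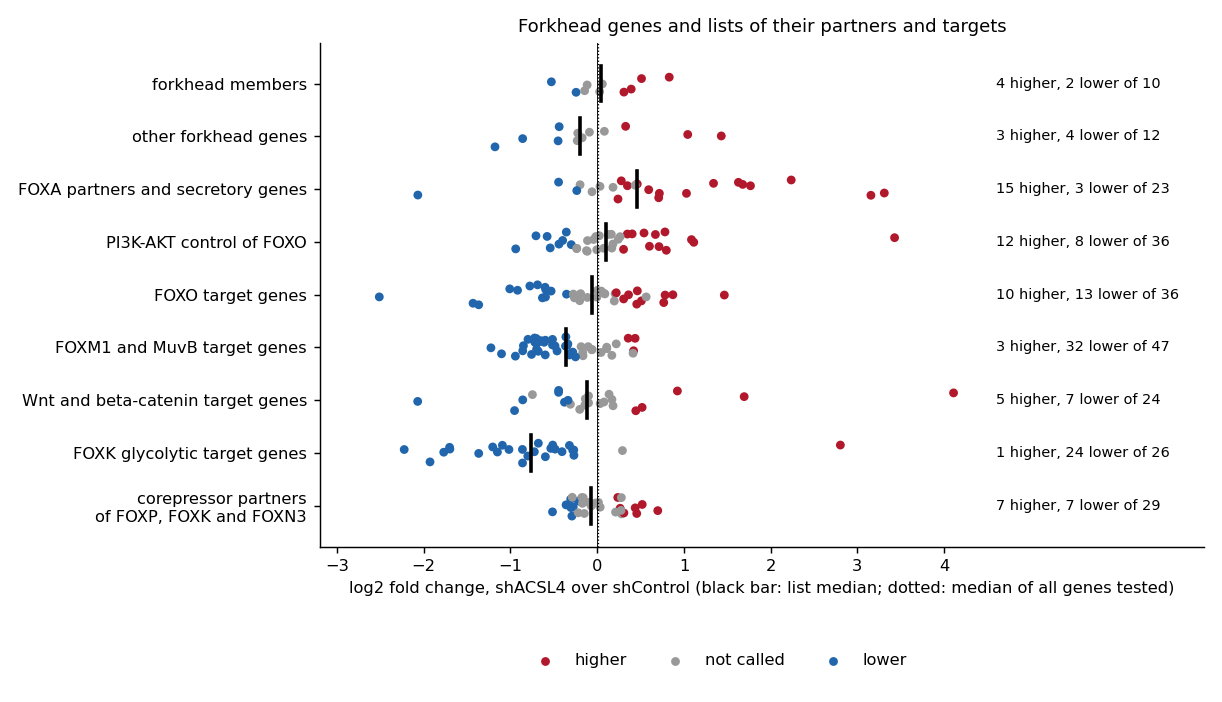
Log2 fold change of shACSL4 over shControl (horizontal axis) for the forkhead genes and lists of their partners and targets, 1 point per measured gene, coloured by call. Black bars are list medians and the dotted line the median of all genes tested. The glycolytic list (24 lower of 26) and the FOXM1 list (32 lower of 47) lie to the left, and the FOXA list (15 higher of 23) to the right.

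Neither FOXO member was called. FOXO3 (ENSG00000118689, chromosome 6, 108559835 to 108684774, plus strand), which turns on genes of stress resistance and cell death, had 161, 162 and 145 CPM in the shACSL4 libraries and 185, 147 and 186 CPM in the shControl libraries. The groups overlapped through shControl replicate 2, which lay with the shACSL4 libraries. The log2 fold change was -0.14 (SE 0.10; adjusted p = 0.247, edgeR), and without shControl replicate 2 it was -0.25 with an adjusted p of 0.0170. FOXO3 shares near-identical sequence with the pseudogene FOXO3B, whose 12 to 37 counts per library were few beside the 2298 to 3114 of FOXO3. How reads that match both genes were counted is not stated. These counts therefore cannot bound the effect of such reads, which was not tested.

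FOXO1 (ENSG00000150907, chromosome 13, 40469953 to 40666597, minus strand), a main target of insulin signalling, had 24.1, 30.7 and 23.7 CPM in the shACSL4 libraries and 27.4, 23.2 and 24.7 CPM in the shControl libraries. One shACSL4 library, replicate 2, lay above the others. The log2 fold change was 0.06 (SE 0.12; adjusted p = 0.712, edgeR), and it was -0.07 without that library. FOXO4, another FOXO gene outside the 10, was at 25 ± 3.85 CPM in shACSL4 and 26.5 ± 0.338 CPM in shControl (SD, n = 3 each; log2 fold change -0.09, not called). The log2 ratio of FOXO1 to FOXO3 was -2.28 ± 0.17 in shACSL4 and -2.47 ± 0.13 in shControl (FPKM; SD, n = 3 each; exact permutation p = 0.2, adjusted 0.333).

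Genes that control FOXO proteins moved in both directions. Of 36 measured genes of the phosphoinositide 3-kinase and AKT list, 12 rose and 8 fell, 55.6% called against 47.2% of all genes tested. The median was 0.10, with 0.22 under library size alone and 0.05 (without shControl replicate 3) to 0.16 (without shACSL4 replicate 3) on leaving out 1 library. IRS1, which carries the insulin signal, was at 41.5 ± 9.90 CPM in shACSL4 and 3.84 ± 0.727 CPM in shControl (SD, n = 3 each; log2 fold change 3.43, SE 0.18). The deacetylase SIRT1 (1.09, SE 0.10) and the kinase PDPK1, which activates AKT (0.71, SE 0.09), also rose. The kinases SGK1 (-0.94, SE 0.11) and AKT1 (-0.58, SE 0.08) fell, as did SKP2 (-0.71, SE 0.11), part of a ubiquitin ligase that degrades FOXO1. AKT1 and SGK1 phosphorylate FOXO proteins. The related kinase AKT2 was called higher (0.40, SE 0.08), and it was picked after its values were seen.

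Genes known as FOXO targets were split. Of 36 measured genes, 10 rose and 13 fell, 63.9% called against 47.2% of all genes tested. The median was -0.06, with 0.06 under library size alone and -0.13 (without shControl replicate 2) to -0.02 (without shControl replicate 3) on leaving out 1 library. The gluconeogenic enzyme PCK1 was at 8.65 ± 2.27 CPM in shACSL4 and 49.2 ± 3.88 CPM in shControl (SD, n = 3 each; log2 fold change -2.51, SE 0.15). TXNIP, which limits glucose uptake (-1.43, SE 0.09), and the antioxidant enzyme CAT (-0.92, SE 0.08) fell as well. The transcription factors KLF6 (1.47, SE 0.11) and KLF4 (0.77, SE 0.09) and the pseudokinase TRIB1 (0.78, SE 0.09) rose.

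FOXM1 rose while most genes of the FOXM1 and MuvB list fell. FOXM1 (ENSG00000111206, chromosome 12, 2857681 to 2877155, minus strand) had 176, 176 and 157 CPM in the shACSL4 libraries and 141, 142 and 128 CPM in the shControl libraries. All shACSL4 libraries lay above all shControl libraries. The means were 170 ± 11 CPM in shACSL4 and 137 ± 7.71 CPM in shControl (SD, n = 3 each), a log2 fold change of 0.31 (SE 0.09; adjusted p = 0.0077, edgeR). On the opposite strand, the gene ITFG2 overlaps 781 of the 4899 exonic bases of FOXM1. ITFG2 was at 42.9 ± 1.33 CPM in shACSL4 and 25.2 ± 1.65 CPM in shControl (SD, n = 3 each; log2 fold change 0.76, SE 0.09). Whether the counting used strand is not stated, so reads from the shared stretch cannot be assigned to either gene, and the part of ITFG2 in the FOXM1 counts was not tested.

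Of the 47 genes of the FOXM1 and MuvB list, all of which passed the filter, 32 fell and 3 rose. That is 74.5% called against 47.2% of all genes tested (median -0.37). PRC1 (35 to 50 counts per library) and LIN37 (4 to 17 counts) were barely counted and were not called. Beside target genes, the list holds the MuvB subunits LIN9, LIN37, LIN52, LIN54 and RBBP4 and the partner MYBL2. Of these, RBBP4 is among the falls and LIN54 among the rises. CDC20, which activates the anaphase-promoting complex, was at 63.8 ± 3.29 CPM in shACSL4 and 149 ± 13.7 CPM in shControl (SD, n = 3 each; log2 fold change -1.23, SE 0.09). The mitotic kinesin KIF20A (-1.10, SE 0.09) and the cyclin-dependent kinase subunit CKS2 (-0.94, SE 0.09) followed. The 3 rises were in the phosphatase CDC25B (0.42, SE 0.09), the kinesin KIF20B (0.44, SE 0.10) and the MuvB subunit LIN54 (0.36, SE 0.11). The LIN54 call was lost without shACSL4 replicate 1 (adjusted p = 0.0883, edgeR) and with limma-trend on FPKM with 1 added (0.0523), with a range of 0.00219 to 0.0883 over 15 alternatives.

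FOXK1 fell most among the members. This gene (ENSG00000164916, chromosome 7, 4682309 to 4771443, plus strand), whose protein represses autophagy genes and raises glycolytic ones in mouse, had 321, 311 and 222 CPM in the shACSL4 libraries and 441, 394 and 397 CPM in the shControl libraries. All shACSL4 libraries lay below all shControl libraries, and shACSL4 replicate 3 was the lowest. The means were 285 ± 54.8 CPM in shACSL4 and 411 ± 26.3 CPM in shControl (SD, n = 3 each), so that 69.3% of the control level remained. The log2 fold change was -0.53 (SE 0.12; adjusted p = 0.00154, edgeR). Without shACSL4 replicate 3 it was -0.37, with an adjusted p of 0.00451. The 50 neighbouring coding genes had a median log2 fold change of -0.21, and 16 of them had a positive one.

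Its close relative FOXK2 fell too, to 109 ± 4.90 CPM in shACSL4, against 149 ± 10.6 CPM in shControl (SD, n = 3 each; log2 fold change -0.45, SE 0.09; adjusted p = 0.00041, edgeR). The log2 ratio of FOXK1 to FOXK2 was 0.98 ± 0.23 in shACSL4 and 1.07 ± 0.03 in shControl (FPKM; SD, n = 3 each; exact permutation p = 0.9). FOXK1 held 68.6%, 68.1% and 62.1% of the summed FOXK FPKM in shACSL4 replicates 1, 2 and 3, and 67.7%, 68.3% and 67.4% in shControl replicates 1, 2 and 3.

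FOXK factors are reported to raise glycolytic genes. Of the 26 genes of the glycolytic list, 24 fell and 1 rose, 96.2% called against 47.2% of all genes tested (median -0.76). Whether FOXK factors act on each of them was not tested. PDK4 is also counted among the FOXO targets. The lactate exporter SLC16A3 was at 9.01 ± 0.14 CPM in shACSL4 and 34.3 ± 3.76 CPM in shControl (SD, n = 3 each; log2 fold change -1.93, SE 0.12). The enolase ENO2 (-2.22, SE 0.15) and the aldolase ALDOA (-1.70, SE 0.14) also fell. ALDOA overlaps another annotated gene on its strand, so its counts are uncertain. The glucose transporter SLC2A3 rose (2.80, SE 0.40) on 41, 100 and 43 counts in the shACSL4 libraries and 11, 7 and 7 in the shControl libraries. It fell outside the genes tested when a mean of at least 50 counts was asked for.

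FOXP1 (ENSG00000114861, chromosome 3, 70952817 to 71583993, minus strand), a repressor that acts as a dimer with other FOXP factors, had 34.3, 29.9 and 25.9 CPM in the shACSL4 libraries. The shControl libraries had 22.7, 21.5 and 19.0 CPM. The groups did not overlap, although the shACSL4 libraries were spread. The means were 30.0 ± 4.19 CPM in shACSL4 and 21.1 ± 1.85 CPM in shControl (SD, n = 3 each), a log2 fold change of 0.51 (SE 0.12; adjusted p = 0.00214, edgeR). On FPKM with limma-trend the call was lost, at 0.20 and an adjusted p of 0.0605 with 1 added and at 0.43 and 0.0868 with 0.1 added. FOXP1 was the lowest of the members per length, and its annotated exons, 52 blocks with 36714 bases, are the longest. It was also low in CPM, where only FOXA3 (19.5 CPM) was lower in shControl. In shACSL4 only FOXO1 (26.1 CPM) and FOXQ1 (24.3 CPM) were lower.

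Of its relatives, FOXP4 rose as well, with 151 ± 3.58 CPM in shACSL4 and 120 ± 2.27 CPM in shControl (SD, n = 3 each; log2 fold change 0.33, SE 0.08), and FOXP2 fell, with 2.69 ± 0.241 CPM in shACSL4 and 6.09 ± 0.998 CPM in shControl (-1.18, SE 0.21). The log2 ratio of FOXP1 to FOXP4 was -4.91 ± 0.20 in shACSL4 and -5.09 ± 0.11 in shControl (FPKM; SD, n = 3 each; exact permutation p = 0.3, adjusted 0.375). Its size depends on the deposited lengths, 36714 bases for FOXP1 and 6170 for FOXP4.

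FOXN3 (ENSG00000053254, chromosome 14, 89124871 to 89619149, minus strand), a repressor linked to cell cycle checkpoints, had 82.1, 69.5 and 69.5 CPM in the shACSL4 libraries and 90.2, 66.7 and 82.7 CPM in the shControl libraries. The groups overlapped. The log2 fold change was -0.12 (SE 0.11; adjusted p = 0.402, edgeR). Without shControl replicate 2 it was -0.23, with an adjusted p of 0.0489, and the range over 15 alternatives was 0.0489 to 0.999.

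Genes of the corepressor list of FOXP, FOXK and FOXN3 proteins were called at a share near that of all genes tested, 48.3% against 47.2%. Of 29, 7 were higher and 7 lower (median -0.07, and 0.05 with library size alone). Beside corepressors, this list holds other partners, such as DVL2, DVL3, BAP1 and OGT. Without shACSL4 replicate 2, 4 were higher and 4 lower. CTBP2 (0.70, SE 0.08), CTBP1 (0.44, SE 0.08) and SIN3B (0.46, SE 0.09) rose. The histone chaperones RBBP4 (-0.52, SE 0.08) and RBBP7 (-0.36, SE 0.09) and the corepressor subunit TBL1XR1 (-0.30, SE 0.08) fell. The TBL1XR1 call was lost with library size alone (-0.19, adjusted p = 0.0746, edgeR). RBBP4 is also counted in the FOXM1 list.

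FOXQ1 (ENSG00000164379, chromosome 6, 1312440 to 1314748, plus strand), a gene of 1 exon, had 19.9, 32.1 and 20.8 CPM in the shACSL4 libraries and 24.3, 23.9 and 23.4 CPM in the shControl libraries. The shControl libraries were nearly level, while shACSL4 replicate 2 lay above all of them and the other two below. The log2 fold change was 0.03 (SE 0.15; adjusted p = 0.893, edgeR), and -0.23 without shACSL4 replicate 2 (adjusted p = 0.158). Of 24 measured Wnt target genes, 5 rose and 7 fell (median -0.12). That is 50% called, near the 47.2% of all genes tested. The Wnt antagonist DKK1 (28.4 ± 6.81 CPM in shACSL4 and 1.67 ± 0.774 CPM in shControl; SD, n = 3 each), the receptor EPHB3 (log2 fold change 1.69, SE 0.12) and the stem cell factor ASCL2 (0.92, SE 0.10) rose. The receptor-degrading ligase RNF43 (-0.86, SE 0.08), the ligand BMP4 (-0.95, SE 0.10) and the matrix protein SMOC2 (-2.07, SE 0.28) fell.

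FOXQ1 lies in a cluster of forkhead genes with FOXF2 and FOXC1. FOXC1 (chromosome 6, 1609972 to 1613897, plus strand) fell, with 18.5, 19.1 and 14.1 CPM in shACSL4 replicates 1, 2 and 3 and 30.3, 31.6 and 31.9 CPM in shControl replicates 1, 2 and 3. Its log2 fold change was -0.86 (SE 0.12; adjusted p = 2.02e-05, edgeR). FOXF2 between them had 0 counts in all 6 libraries, where 3 counts, the limit that a count of 0 allows, correspond to 0.171 to 0.202 CPM. The difference between the changes of FOXQ1 and FOXC1 was not tested.

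**Figure D3:**
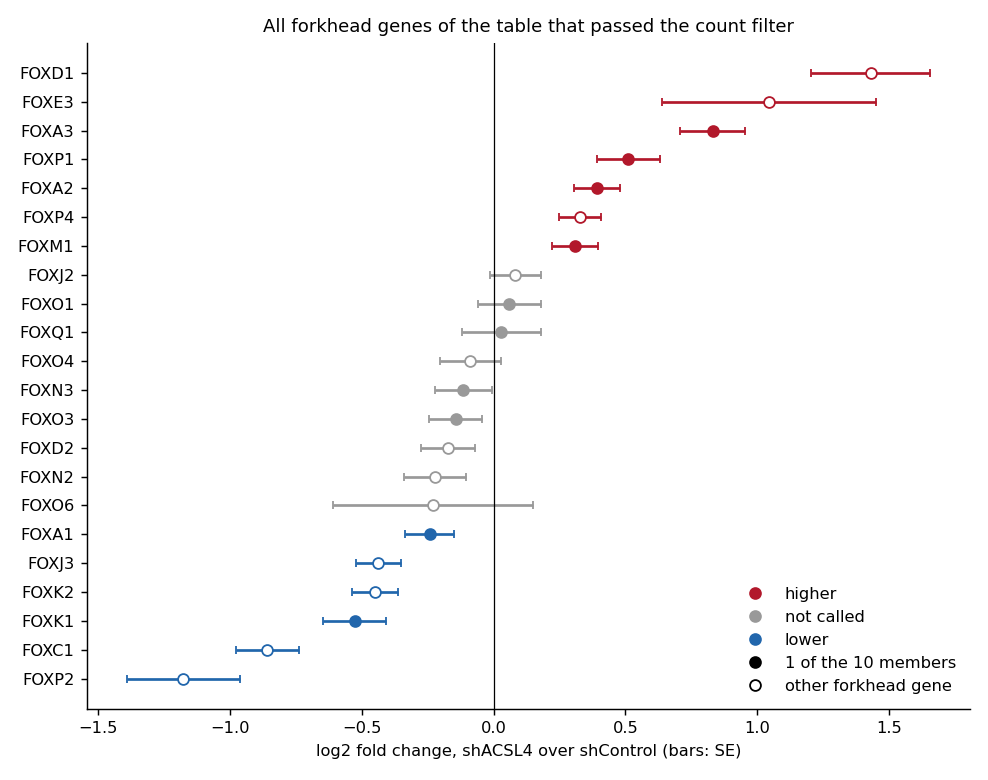
Log2 fold change of shACSL4 over shControl with its SE (horizontal axis) for the 22 forkhead genes that passed the count filter, ordered by fold and coloured by call. Filled points are the 10 members and open points the other 12. FOXD1 lies highest (1.43) and FOXP2 lowest (-1.18), both outside the 10.

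Of the other 34 forkhead genes listed, 12 passed the filter, 3 rose and 4 fell, 58.3% called against 47.2% of all genes tested. Their median was -0.20, with -0.08 under library size alone, -0.10 without shControl replicate 3, -0.11 without shACSL4 replicate 2 and -0.28 without shControl replicate 2. The rises were FOXP4, FOXD1 (5.87 ± 0.261 CPM in shACSL4 and 2.17 ± 0.491 CPM in shControl; log2 fold change 1.43, SE 0.23) and FOXE3. FOXE3 rested on 16, 24 and 18 counts in the shACSL4 libraries and 7, 10 and 10 in the shControl libraries (1.04, SE 0.41; adjusted p = 0.0437, edgeR). Its call was lost on leaving out any single library (adjusted p = 0.0703 to 0.162). The falls were FOXK2, FOXC1, FOXP2 and FOXJ3 (71.9 ± 2.37 CPM in shACSL4 and 97.5 ± 7.15 CPM in shControl; SD, n = 3 each; -0.44, SE 0.09). Of the 22 that did not pass, 8 had 0 counts in every library and none had over 20 in any. They include FOXF1 and FOXL1, which mark gut mesenchyme.

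Per length, the 10 members spanned a wide range. In shControl, FOXK1 (31.2 ± 2.08 FPKM), FOXM1 (27.8 ± 1.76), FOXO3 (22.2 ± 2.81) and FOXA2 (16.5 ± 0.740 FPKM) came first, each apart from the next (SD, n = 3 each). FOXA1 (10.5 ± 0.731 FPKM), FOXQ1 (10.3 ± 0.251) and FOXA3 (8.83 ± 1.32) overlapped, and FOXN3 (7.19 ± 1.07 FPKM) overlapped with FOXA3. FOXO1 (4.00 ± 0.347 FPKM) and FOXP1 (0.570 ± 0.0537 FPKM) came last, apart from each other and from the rest. The place of FOXP1 depends on its deposited length of 36714 bases, the longest of the members. In CPM it was at 21.1 in shControl, above FOXA3 at 19.5. In shACSL4, FOXM1 came first at 34.1 ± 2.24 FPKM, apart from the next. FOXA2 (21.5 ± 0.884 FPKM), FOXK1 (21.4 ± 4.13) and FOXO3 (19.9 ± 1.22) overlapped. FOXA3 stood at 15.5 ± 1.90 FPKM, and its highest library overlapped with the lowest of FOXK1. It lay above FOXQ1 (10.3 ± 2.93), with which it also overlapped, and above FOXA1 (8.78 ± 0.342 FPKM), with which it did not. FOXN3 (6.57 ± 0.635), FOXO1 (4.13 ± 0.632) and FOXP1 (0.805 ± 0.112 FPKM) came last, each apart from the next.

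**Figure D4:**
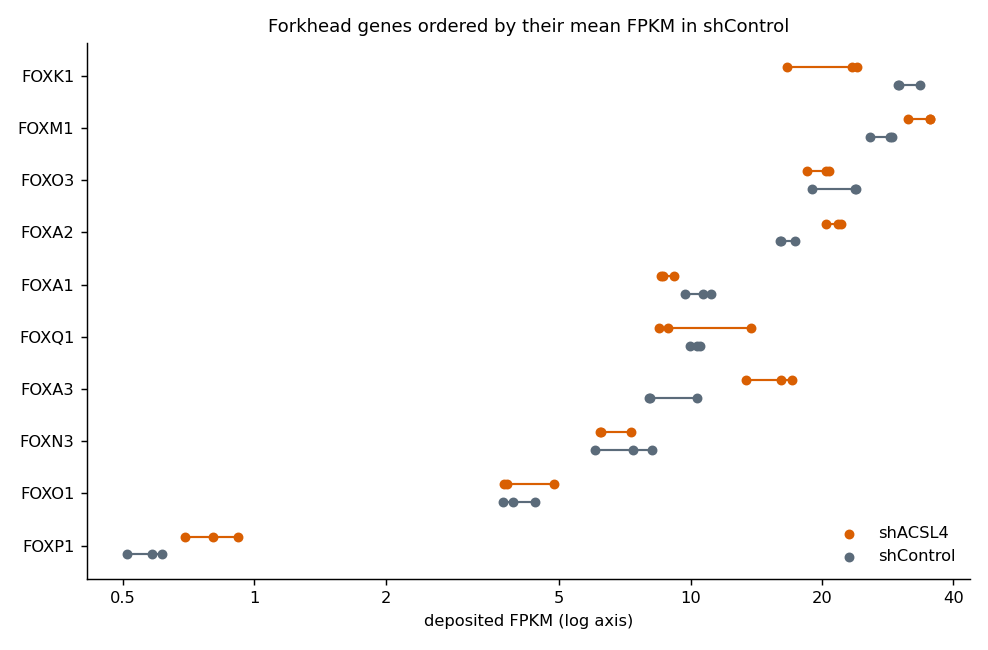
Deposited FPKM of each member (horizontal log axis) in the 3 shACSL4 libraries (upper row of each gene, orange) and the 3 shControl libraries (lower row, grey), with lines from the lowest to the highest library. Genes are ordered by their shControl mean, from FOXK1 (31.2) to FOXP1 (0.570), and FOXM1 lies highest in shACSL4 (34.1).

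The median log2 fold change of up to 50 neighbours was 0.16 at FOXA3, 0.20 at FOXA2, 0.15 at FOXM1 (39 neighbours), -0.0003 at FOXP1 and -0.04 at FOXA1. Neighbours with a positive change numbered 37 of 50 at FOXA3, 34 of 50 at FOXA2 and 23 of 39 at FOXM1. They numbered 25 of 50 at FOXP1 and 20 of 50 at FOXA1. A median over neighbours of mixed sign cannot be set against the change of a single gene. Whether the members' changes include a change shared with their neighbours was not tested.

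**Figure D5:**
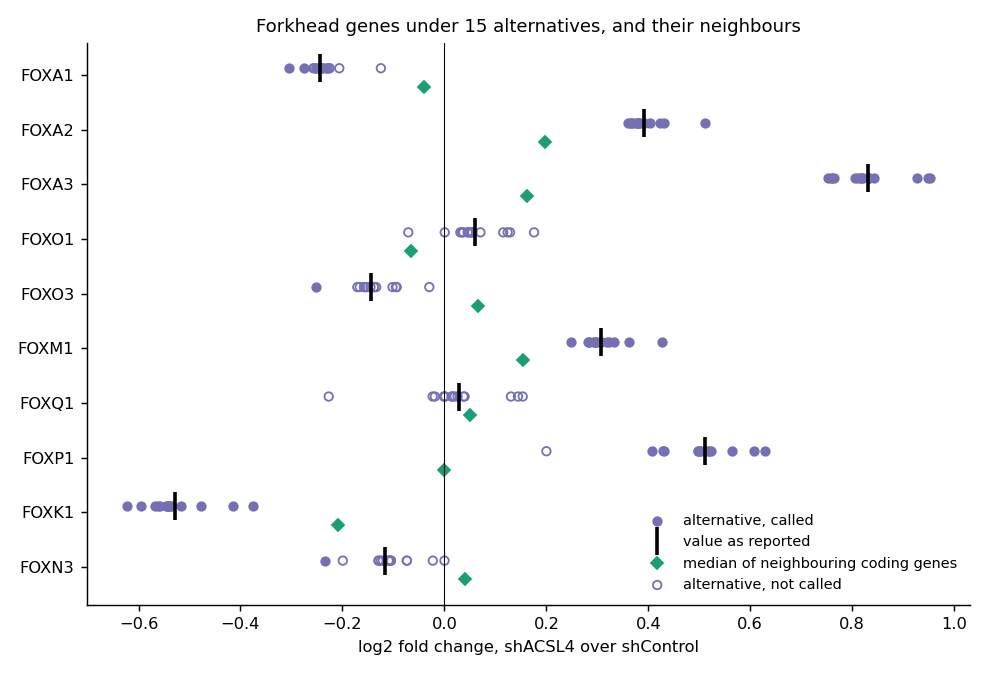
Log2 fold change of each member (horizontal axis) as reported (black bar) and under 15 alternatives (filled where called, open where not), with the median of neighbouring coding genes (green). FOXA2, FOXA3, FOXM1 and FOXK1 were called under all 15, FOXP1 under 13 and FOXA1 under 8.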

How the data were processed

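The 10 members, the gene lists and the tests were chosen with earlier results of these data known. CASAVA, HISAT2 and GRCh38 (hg38) appear in the submitters' processing notes with no version. How reads were counted, and whether by strand, is not stated there. The deposited table holds raw counts per gene, per the file headers, and its 58735 identifiers and names are those of GENCODE release 29. Its FPKM values per library are the authors', per the file headers, and the deposited gene length equals the union of GENCODE exons for each member. The authors' deposited log2 fold changes, p-values and group mean signal were not used for any test or call. Only their FOXA1 values were quoted, beside the FOXA1 call. Control columns are headed NC in the table and shControl in the titles. They were matched by elimination and by number.

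Counts were filtered with filterByExpr, scaled by TMM and tested in edgeR 4.0.16 under R 4.3.3 by the quasi-likelihood test, with group as the only term, over 15694 genes (limma 3.58.1 served the alternatives). Adjusted p-values are Benjamini-Hochberg values over all of them. A gene was called, and is said to have risen or fallen, if its adjusted p was below 0.05. Fold changes are on the log2 scale with shACSL4 on top, and CPM uses the scaled library sizes. At 3 counts the level is 0.171 to 0.202 CPM, and such limits cover counting error only. Levels of different genes were compared in FPKM. Ratios of relatives were compared with an exact permutation test over libraries. Named genes were the 10 members, each called forkhead gene, and up to 3 called genes per list and direction with the smallest adjusted p. One list symbol was matched through its newer form, SELENOP. Neighbours are the 25 tested coding genes on each side, fewer at chromosome ends. The steps were tested on simulated data.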

Additional observations from a re-analysis of the deposited data

How the results depend on the processing

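Tried instead were the tools DESeq2 1.42.0 and limma-voom, limma-trend on FPKM with 1 or 0.1 added before log2, scaling by library size alone or by median ratios, no count filter or one at a mean of 50, a replicate block, and the omission of each library. The 4 rises among the members were called in each, except that of FOXP1 on FPKM. Members called lower went from 2 to 1 with DESeq2, library size alone and no filter, FOXK1 alone in each, and to between 1 and 4 on leaving out 1 library. The 4 arose without shControl replicate 2, when FOXO3 and FOXN3 were also called. The members' median turned to -0.0722 without shACSL4 replicate 2. With library size alone the median of all genes moved to 0.13 and 65.6% of calls were higher, against 50.9% as reported. There FOXN3 was at 0.000135, and the medians were 0.0580 for FOXO targets, 0.000701 for Wnt targets and 0.0470 for the corepressor list. The calls were then 5 higher in the FOXM1 list, 2 higher in the glycolytic list, and 11 higher and 2 lower in the corepressor list. With a mean of at least 50 counts no glycolytic gene was called higher (0). Leaving out 1 library gave 4 to 10 genes of the corepressor list higher and 4 to 10 lower.

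FOXQ1 changed sign with limma-voom (-0.000152), limma-trend (-0.0188 with 1 added and -0.0230 with 0.1 added), the replicate block (-0.00106) and without shACSL4 replicate 2 (-0.23), and was called in none of them. FOXO1 was at -0.0709 without shACSL4 replicate 2. The FOXK1 to FOXK2 ratio difference, -0.10 as reported, ranged from -0.17 to 0.0365 (without shACSL4 replicate 3) on leaving out 1 library. Deviations of same-numbered libraries correlated at 0.15, -0.05 and 0.02, and shACSL4 replicate 2 correlated best with shControl replicate 1 (0.10). With 3 libraries per group, this check cannot tell whether same-numbered libraries were paired. With the replicate block 7414 genes were called, against 7400 as reported, and 6 members in each. Without the filter 7459 genes were called and with DESeq2 6669. FOXE3 was not called with DESeq2, with no filter or with the replicate block (adjusted p = 0.171, 0.109 and 0.0639). Each member had at least 266 counts in each library, and how counting error and library spread share in their errors was not tested.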

Other observations

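Among genes named for a neighbouring forkhead gene, the noncoding FOXD2-AS1 was called lower, with 11.5, 10.1 and 11.8 CPM in shACSL4 replicates 1, 2 and 3 and 21.1, 22.2 and 21.4 CPM in shControl replicates 1, 2 and 3 (log2 fold change -0.95, SE 0.12; adjusted p = 6.76e-06, edgeR's quasi-likelihood test). FOXD2 itself, the coding gene beside it on the other strand, was at 30.0 ± 1.31 CPM in shACSL4 and 33.8 ± 3.57 CPM in shControl (SD, n = 3 each) and was not called (-0.17, SE 0.10). The antisense genes FOXP4-AS1 (-0.41, SE 0.30) and FOXN3-AS1 (0.44, SE 0.42) had at most 40 counts in any library and were not called. These genes were picked after their values were seen.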
